A study of Mus musculus with 6 samples.

Results

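Transcripts of 10 amino acid transporter genes were examined: Slc6a14, Slc7a1, Slc7a2, Slc7a5, Slc7a7, Slc7a8, Slc3a2, Slc38a1, Slc38a2 and Slc1a5. They were taken by symbol from a table of 56941 mouse genes, and all 10 were found and passed the filter on low counts. The set covers cationic, large neutral and broad carriers and was chosen by the measured difference between the 2 genotypes, in which Slc6a14 and Slc7a1 were known to be much higher in the knockout. Values of the 10 genes in that comparison are therefore given as a description, and where the calls of the fit over all genes are counted for them, the count supports nothing. RNA came from cells isolated with magnetic beads from mouse lungs as primary endothelial cells, cleared of dead cells and kept in endothelial medium with 10% serum. The sample titles name these cells PAECs. The labels give 3 libraries with the genotype FUNDC1-FLOX (FL) and 3 with the genotype FUNDC1-KO (EC-KO), in which the mitophagy receptor gene Fundc1 is deleted in endothelium as the sample names have it. They do not name the strain, the age of the mice, the Cre driver, the antibody on the beads, the time in culture or whether animals were pooled, and do not say whether replicates came from separate animals. The p-values thus rest on the variation among these libraries alone, which may be technical.

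Amino acids cross the plasma membrane on carriers of several families. Sodium-coupled carriers such as the SNAT proteins of the SLC38 family bring small neutral amino acids and glutamine into the cell, and the CAT proteins of the SLC7 family let in arginine, lysine and ornithine. The remaining SLC7 proteins, the light chains, exchange amino acids across the membrane and reach it only when linked to a heavy chain, for most of them the product of Slc3a2. In endothelium, arginine taken up by CAT1 is the substrate from which nitric oxide synthase makes nitric oxide, and several of these carrier genes are known to be induced by the transcription factor ATF4 when amino acids run short.

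Depth was 26658998 to 34306962 gene counts per library, and 72.4% to 77.8% of alignments were assigned to genes. Log2 levels of libraries correlated at 0.985 to 0.989 within FL, at 0.973 to 0.990 within EC-KO and at 0.942 to 0.961 between the groups, a description across genes, which are not independent replicates. The targeted gene Fundc1 was at 25.1, 32.0 and 30.7 CPM (counts divided by library size, scaled with TMM factors) in FL 1, 2 and 3 and at 14.1, 18.2 and 12.8 CPM in EC-KO 1, 2 and 3. Fundc1 fell (log2 fold change -0.96 ± 0.19, adjusted p = 0.00796 in edgeR), but was at 0.16 when libraries were scaled to pan-endothelial markers (adjusted p = 0.675). All 15 pan-endothelial markers listed had counts, and 9 of them fell (3 or 4 when FL 2, FL 3, EC-KO 1 or EC-KO 3 was dropped, 15 without EC-KO 2; median -1.12), at a summed level of 8300 to 11500 CPM in FL and 3500 to 7030 CPM in EC-KO, with EC-KO 2 the highest of its group. Summed epithelial markers were at 1950 to 4610 CPM in FL and 11900 to 17600 CPM in EC-KO, and summed macrophage markers at 5380 to 6980 and 2390 to 3230 CPM. The isolates thus held RNA of several cell types, and in such bulk samples fewer cells of a type and less RNA per cell cannot be told apart.

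Of the 10 genes, 6 were higher in EC-KO (Slc6a14, Slc7a1, Slc7a5, Slc38a1, Slc38a2 and Slc1a5) and 2 were lower (Slc7a2 and Slc7a7), at an adjusted p under 0.05 in edgeR's quasi-likelihood fit over 18562 genes. In that fit 27.1% of all tested genes were called, 13.5% in each direction. The groups of 3 libraries did not overlap for 8 of the 10 genes, against 45.4% of all tested genes. The median log2 fold change was 1.01 for the 10 genes and 0.03 for all tested genes. Since the genes were chosen with this contrast known, these counts are a description and nothing is read from them. The count of lower genes depended on the library: Slc7a7 was not among them when FL 2, FL 3, EC-KO 1 or EC-KO 3 was dropped, and Slc7a8 joined them without FL 3 and without EC-KO 2. When libraries were instead scaled to the summed pan-endothelial markers, the median of all genes moved by 1.16 on the log2 scale. Relative to those markers the 6 genes were again higher, Slc7a2 was at -0.78, and Slc7a7, Slc7a8 and Slc3a2 changed sign to 0.46, 0.46 and 0.95, with Slc3a2 then counted as higher too.

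Slc6a14 encodes a carrier that is driven by sodium and chloride, takes up both neutral and cationic amino acids and is best known from epithelia such as those of the airway and colon. Its level was 13.2, 5.35 and 7.43 CPM in FL 1, 2 and 3, against 117, 157 and 202 CPM in EC-KO 1, 2 and 3. Even the lowest EC-KO library lay well above the highest FL library. Group means were 8.67 ± 4.08 and 159 ± 42.7 CPM (SD, n = 3 each), 18.4-fold higher in EC-KO in the edgeR fit, with a log2 fold change of 4.20 ± 0.37 (SE). The value rested on 175 to 349 counts per FL library and 4060 to 6548 counts per EC-KO library. The gene (ENSMUSG00000031089) lies on the plus strand of chromosome X, 21581135 to 21608594 as the deposited table numbers it. Its exons overlap those of no other gene in the table. The table's positions are not those of GRCm38, and which build they follow could not be settled.

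Epithelial markers moved with Slc6a14, and their part in its level was not tested. In the list of 17 epithelial markers 16 rose, with a median log2 fold change of 2.43. Of the most abundant pair, Sftpc, a surfactant protein gene expressed by type II pneumocytes, rose from 587 ± 432 to 5530 ± 1750 CPM (log2 fold change 3.23 ± 0.50, adjusted p = 0.00262 in edgeR's quasi-likelihood test). Scgb1a1, the secretoglobin of airway club cells, rose from 1750 ± 725 to 4270 ± 679 CPM (1.28 ± 0.30, adjusted p = 0.0155), and was not called without FL 3 (adjusted p = 0.0707). All of the epithelial markers had counts in both groups. Relative to 1000 CPM of summed epithelial markers, Slc6a14 was at 2.87, 2.74 and 3.01 CPM in FL 1, 2 and 3, so this ratio varied little among the 3 FL libraries. On the same scale it was at 9.73, 8.92 and 17.1 CPM in EC-KO 1, 2 and 3, above every FL library, and the ratio of the group means was 4.14. That sum is mostly Sftpc and Scgb1a1 RNA, and single markers differed widely in their log2 fold changes. The largest were those of Cldn4, a claudin of tight junctions (4.58 ± 0.61), and the keratin genes Krt18 and Krt8 (3.57 ± 0.42 and 3.54 ± 0.38; adjusted p = 0.0015, 0.000951 and 0.000625 in edgeR). The smallest were those of Slc34a2 (0.73 ± 0.42, adjusted p = 0.227 in edgeR), Foxj1 (0.97 ± 0.22, adjusted p = 0.0128) and Scgb1a1. EC-KO 3 had the highest Slc6a14 level and the lowest epithelial sum of its group. Fibroblast markers also moved in this direction, with 7 of 10 called higher, a median of 1.34 and sums of 388 to 497 CPM in FL and 743 to 1620 CPM in EC-KO. Among these, the log2 fold changes of the matrix genes Dcn and Col1a2 were 2.90 ± 0.32 and 1.30 ± 0.27 (adjusted p = 0.000673 and 0.00954 in edgeR). These marker ratios were chosen after the values had been seen.

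The promoter of Slc6a14 is shown because this gene had the largest difference of the set. RefSeq's promoter table (GRCm38.p6) held windows for 6 of the 10 genes, in 11 windows, each from 250 bases before to 50 bases after a transcript start, and the 250 bases before the start are printed. Slc7a2, Slc7a5, Slc38a1 and Slc1a5 had no window. Each full window was searched on both strands for the C/EBP-ATF response element TGATGNAAN, which binds ATF4 dimers, for the antioxidant response element TGACNNNGC, which binds NRF2, and for the xenobiotic response element core GCGTG, which binds the aryl hydrocarbon receptor. Of 27025 genes with a window, 4.50% held the ATF4 motif, 14% the NRF2 motif and 35.2% the xenobiotic core. Sequences run 5′ to 3′ on the strand of the gene, position 1 is the start and -1 the base before it, capitals mark a match, and the motifs overlap each other in none of the matches found. Slc6a14 held none of the 3 motifs in its window (chrX:21714650-21714899, plus strand), and its GC content was 54.0% with 4 CpG sites, where the median window had 52.4% and 6.
Slc6a14: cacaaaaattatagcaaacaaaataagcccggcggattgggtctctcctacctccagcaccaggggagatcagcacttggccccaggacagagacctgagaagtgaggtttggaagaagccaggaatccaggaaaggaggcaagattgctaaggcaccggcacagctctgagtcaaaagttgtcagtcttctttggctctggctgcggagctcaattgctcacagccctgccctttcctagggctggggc

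The cationic carriers Slc7a1 and Slc7a2 differed between the groups in opposite directions. Slc7a1, the gene of CAT1, was at 74.5, 67.9 and 55.8 CPM in FL 1, 2 and 3 and at 200, 179 and 223 CPM in EC-KO 1, 2 and 3. Its groups did not overlap and its libraries varied little, with coefficients of variation of 14.3% and 10.9%. Slc7a2, the gene of CAT2, which is induced in macrophages and abundant in liver, was at 466, 271 and 170 CPM in FL and at 58.4, 104 and 97.3 CPM in EC-KO. Its groups did not overlap either, but FL spread widely (coefficient of variation 49.9%), with FL 1 highest. The log2 fold changes were 1.61 ± 0.17 for Slc7a1 (3.04-fold higher) and -1.81 ± 0.37 for Slc7a2 (3.50-fold lower), and that of Slc7a2 was -1.38 without FL 1. In the table's coordinates Slc7a1 (ENSMUSG00000041313) lies on chromosome 5, 148264220 to 148336714, minus strand, and Slc7a2 (ENSMUSG00000031596) lies on chromosome 8, 41315433 to 41375345, plus strand.

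Per gene length, the balance within the cationic pair turned over. As RPKM (CPM per kilobase of gene length), Slc7a1 made up 11.2%, 16.6% and 20.7% of the summed level of both genes in FL 1, 2 and 3. In EC-KO 1, 2 and 3 it made up 73.1%, 57.8% and 64.5%. The sum of both was 57.5, 35.5 and 23.4 RPKM in FL, against 23.8, 26.9 and 30 RPKM in EC-KO, so the groups overlapped in the sum and not in the share. With the longest coding transcript as the length, an alternative added after seeing the data, the mean share was 21.1% in FL and 72.1% in EC-KO. Relative to 1000 CPM of summed macrophage markers, Slc7a2 was at 31.6 to 82.7 CPM in FL and 24.0 to 40.8 CPM in EC-KO, and these ranges overlapped. They overlapped also relative to the pan-endothelial sum (14.8 to 56.2 and 14.7 to 26.7 CPM). Relative to the epithelial sum (68.8 to 139 and 4.84 to 8.2 CPM) and the fibroblast sum (362 to 1200 and 53.6 to 131 CPM) they did not overlap. Both of these sums were higher in EC-KO, so the direction of these ratios followed from the fall of Slc7a2 in CPM. Of 10 macrophage markers 9 fell, with a median log2 fold change of -2.07. Cd14, a co-receptor for lipopolysaccharide, was at -2.17 ± 0.20 and the lysozyme gene Lyz2 at -0.64 ± 0.23 (adjusted p = 0.000436 and 0.0694 in edgeR). The part of these cells in the level of Slc7a2 was not tested. Slc7a1 was higher in EC-KO relative to the macrophage sum (6.96 times) and the pan-endothelial sum (6.86 times). Both of these sums were lower there, so the direction of these ratios followed from its rise in CPM. Its ratios to the epithelial and fibroblast sums overlapped between the groups.

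Slc7a1 has 2 transcript starts in the RefSeq windows. The window of the upstream start (chr5:148399905-148400154, minus strand, GRCm38.p6) had a GC content of 62.4% and 21 CpG sites. It held the NRF2 motif on the reverse strand at positions -11 to -3 from the start and neither of the other motifs. The full window of the other start held the xenobiotic core at positions 13 to 17, past that start. The upstream window is shown as the promoter of the cationic carrier that was higher in EC-KO.
Slc7a1: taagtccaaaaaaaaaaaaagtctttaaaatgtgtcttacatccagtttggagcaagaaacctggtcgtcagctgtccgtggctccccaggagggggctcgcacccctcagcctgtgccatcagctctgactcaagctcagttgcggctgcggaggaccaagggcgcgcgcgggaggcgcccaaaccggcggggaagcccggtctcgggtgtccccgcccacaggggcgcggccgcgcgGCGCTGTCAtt

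**Figure D1:**
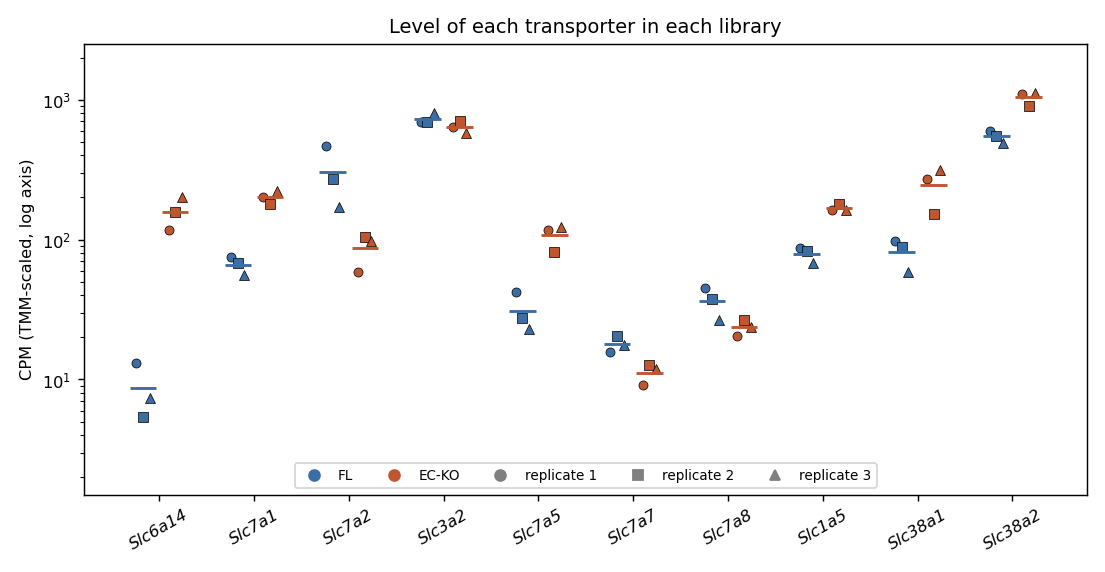
Level of each of the 10 transporter genes in CPM (log axis) in the 3 FL and 3 EC-KO libraries, with a point per library and a bar at the group mean. Slc6a14 went from 5.35 to 13.2 CPM in FL to 117 to 202 CPM in EC-KO, and ranges overlapped for Slc3a2 and Slc7a8.

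**Figure D2:**
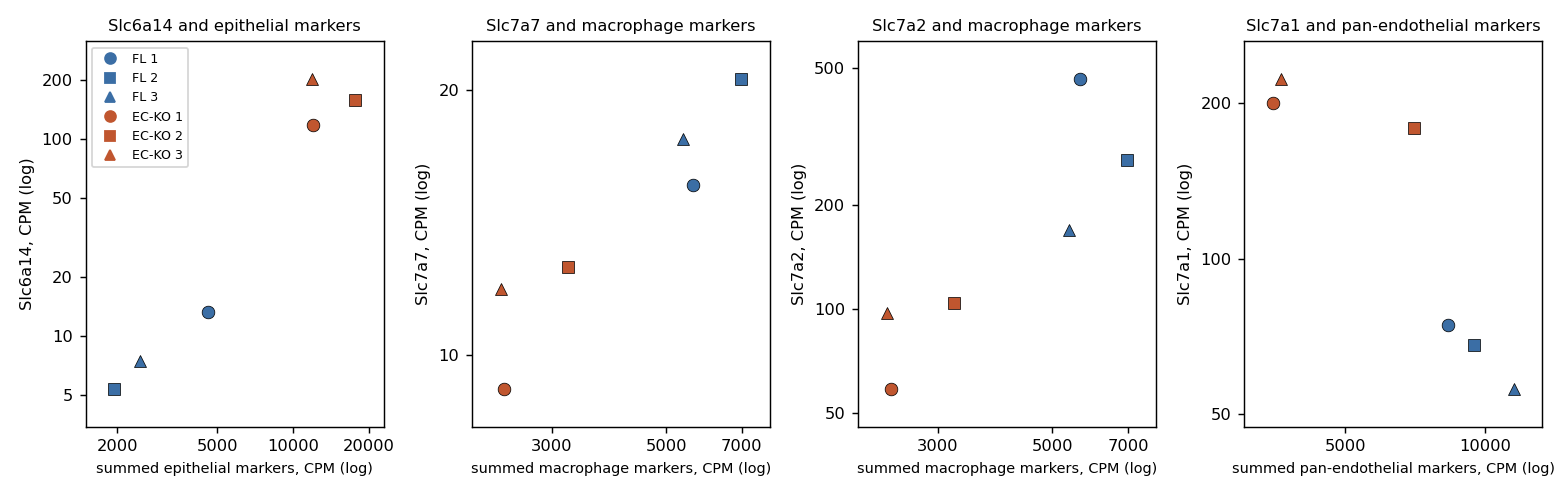
Level of 4 transporter genes (CPM, log axes) against the summed level of a cell type's markers in the same library, with FL in blue, EC-KO in orange and a symbol per replicate. Epithelial markers were at 1950 to 4610 CPM in FL and 11900 to 17600 CPM in EC-KO where Slc6a14 was at 5.35 to 13.2 and 117 to 202 CPM.

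The heavy chain gene Slc3a2 encodes CD98, which carries the light chains to the membrane and transports nothing itself. In CPM, Slc3a2 was abundant and close to even between the groups. It was at 698, 698 and 803 CPM in FL 1, 2 and 3 and at 635, 705 and 577 CPM in EC-KO 1, 2 and 3. The ranges overlapped, and the log2 fold change was -0.20 ± 0.17. Relative to the pan-endothelial, macrophage, epithelial and fibroblast sums they did not overlap, and the ratios of group means were 1.93, 1.93, 0.169 and 0.364. Pan-endothelial and macrophage sums were lower in EC-KO, and the other sums higher. Coefficients of variation were 8.26% in FL and 10.0% in EC-KO, the smallest of the 10 genes in FL and the next after that of Slc1a5 in EC-KO. Slc3a2 (ENSMUSG00000010095) lies on chromosome 19, 8684246 to 8700733, minus strand in the same coordinates.

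Its light chain partners differed from each other. Slc7a5, the gene of LAT1, which exchanges large neutral amino acids such as leucine and tryptophan, was at 42.0, 27.3 and 23.1 CPM in FL and at 118, 81.0 and 122 CPM in EC-KO. Its groups did not overlap, and it was 3.48-fold higher in EC-KO (log2 fold change 1.80 ± 0.26). Slc7a8, the gene of LAT2, which also takes small neutral amino acids, was at 45.4, 37.6 and 26.8 CPM in FL and at 20.4, 26.8 and 23.8 CPM in EC-KO, so that the values of FL 3 and EC-KO 2 were alike. Slc7a7, the gene of y+LAT1, which exchanges cationic for neutral amino acids and is mutated in lysinuric protein intolerance, was at 15.6, 20.6 and 17.6 CPM in FL and at 9.15, 12.6 and 11.9 CPM in EC-KO. Every FL library was above every EC-KO library for Slc7a7. The log2 fold changes were -0.63 ± 0.22 for Slc7a8 and -0.68 ± 0.20 for Slc7a7. Of the exon bases of Slc7a7, 7.0% are shared with Oxa1l on the other strand, and the strand setting of the counting is not given in the sources used here. Slc7a5 (ENSMUSG00000040010) lies on chromosome 8, 122607889 to 122634433, minus strand. Slc7a7 (ENSMUSG00000000958) lies on chromosome 14, 54606899 to 54655237, minus strand, and Slc7a8 (ENSMUSG00000022180) lies on chromosome 14, 54959666 to 55019403, minus strand.

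As RPKM, Slc7a5 made up 45.1%, 34.9% and 36.9% of the summed level of these 3 light chains in FL 1, 2 and 3, against 82.3%, 70.4% and 79.8% in EC-KO 1, 2 and 3. Slc7a8 went from a mean share of 34.5% to 13.1% and Slc7a7 from 26.6% to 9.38%. Slc7a5 thus had the largest share of the 3 in each EC-KO library, whereas in FL 2 Slc7a8 was just ahead of it. The sum of the 3 light chains was 12.7%, 10.7% and 7.44% of the level of Slc3a2 in FL, against 21.5%, 15.5% and 25.3% in EC-KO. When Slc7a6 and Slc7a11, which also pair with this heavy chain, were added, the 5 light chains came to 30%, 31.8% and 21.3% of Slc3a2 in FL, against 43.1%, 38.1% and 56.5% in EC-KO. Heavy chain transcripts thus exceeded those of these light chains in each library, on the RPKM scale. Relative to 1000 CPM of summed macrophage markers, Slc7a7 was at 2.76, 2.95 and 3.28 CPM in FL, against 3.77, 3.92 and 4.99 CPM in EC-KO, and Slc7a8 at 4.99 to 8.04 and 8.32 to 9.99 CPM. On that scale both were higher in EC-KO, the opposite of their direction in CPM. Relative to the epithelial and fibroblast sums, which were higher in EC-KO, both were lower there, a direction that followed from their lower CPM. The ratios of the group means were 0.118 and 0.27 for Slc7a7 and 0.131 and 0.269 for Slc7a8. Relative to the pan-endothelial sum the ranges of both genes overlapped. The part of macrophages in the levels of Slc7a7 and Slc7a8 was not tested.

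Among the 6 genes with a window, Slc7a7 was the only one that held the ATF4 motif. It also had the most windows of these genes, some of them overlapping, so more of its sequence was searched. Its windows held TGATGCAAC, which lies at positions -243 to -235 from 1 start and at -1 to 8 from a start upstream of it, and TGATGAAAG at -141 to -133 from that upstream start. The window with the match far from the start (chr14:54417703-54417952, minus strand, GRCm38.p6) is shown for this match. Its GC content was 62.4%.
Slc7a7: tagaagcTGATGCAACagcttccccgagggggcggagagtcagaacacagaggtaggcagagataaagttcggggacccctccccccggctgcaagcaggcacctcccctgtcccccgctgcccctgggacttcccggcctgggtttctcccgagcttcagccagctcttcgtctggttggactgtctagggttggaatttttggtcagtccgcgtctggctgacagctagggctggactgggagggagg

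The 3 sodium-coupled carriers of neutral amino acids in the set were higher in EC-KO. Slc1a5, the gene of ASCT2, which exchanges glutamine and other neutral amino acids, was at 87.7, 82.2 and 68.2 CPM in FL 1, 2 and 3 and at 164, 179 and 163 CPM in EC-KO 1, 2 and 3. Slc38a1, the gene of SNAT1, was at 97.1, 88.5 and 58.3 CPM in FL and at 269, 153 and 313 CPM in EC-KO. Slc38a2, the gene of SNAT2, which is known to respond to amino acid starvation, was at 598, 552 and 492 CPM in FL and at 1090, 903 and 1120 CPM in EC-KO. None of the 3 genes had overlapping groups. The log2 fold changes were 1.09 ± 0.16 for Slc1a5, 1.59 ± 0.29 for Slc38a1 and 0.93 ± 0.18 for Slc38a2. EC-KO 2 was the lowest of the EC-KO libraries for Slc38a1 and Slc38a2, and also for Slc7a1 and Slc7a5. EC-KO 2 had the highest endothelial, epithelial, macrophage, fibroblast and smooth muscle marker sums of its group and the lowest lymphocyte sum. Without it the log2 fold changes of Slc38a1 and Slc38a2 were 1.81 and 0.99. Relative to 1000 CPM of summed epithelial markers, which were also higher in EC-KO, Slc1a5 was at 19.0 to 42.1 CPM in FL and 10.2 to 13.8 CPM in EC-KO, and Slc38a2 at 130 to 283 and 51.3 to 94.8 CPM. Both were thus lower in EC-KO on that scale, and the ranges of Slc38a1 and Slc7a5 overlapped. Relative to the pan-endothelial and macrophage sums, which were lower in EC-KO, both were higher there. The ratios of the group means were 4.65 and 4.79 for Slc1a5 and 4.32 and 4.34 for Slc38a2. Relative to the fibroblast sum the ranges of both genes overlapped. The part of epithelial cells in these levels was not tested. Of the exon bases of Slc38a1, 8.8% are shared with genes on the other strand. Slc1a5 (ENSMUSG00000001918) lies on chromosome 7, 16515265 to 16532199, plus strand. Slc38a1 (ENSMUSG00000023169) lies on chromosome 15, 96469299 to 96540794, minus strand, and Slc38a2 (ENSMUSG00000022462) lies on chromosome 15, 96585273 to 96597611, minus strand.

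Slc38a2 had the largest counts of the 10 genes in EC-KO (28781 to 37752 per library), and its promoter is shown as that of the most abundant carrier that was higher there. The window (chr15:96699729-96699978, minus strand, GRCm38.p6) had a GC content of 72.0% and 30 CpG sites and held the NRF2 motif at positions -27 to -19. The full window also held the xenobiotic core on the reverse strand at positions 29 to 33, past the start.
Slc38a2: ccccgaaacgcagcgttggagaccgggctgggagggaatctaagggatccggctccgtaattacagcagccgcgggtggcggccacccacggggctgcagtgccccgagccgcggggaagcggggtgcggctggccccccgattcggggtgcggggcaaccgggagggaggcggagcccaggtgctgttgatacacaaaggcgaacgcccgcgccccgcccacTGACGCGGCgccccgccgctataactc

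Per gene length, Slc3a2 was the most abundant of the 10 in both groups, at 208 ± 17.2 RPKM in FL and 181 ± 18.2 RPKM in EC-KO (SD, n = 3). Slc38a2 came next at 61.9 ± 6 and 118 ± 13.5 RPKM. In FL the order went on with Slc7a2 (33.1 ± 16.5), Slc1a5 (19.0 ± 2.41), Slc7a5 (8.30 ± 2.67), Slc7a8 (7.31 ± 1.86), Slc7a1 (5.73 ± 0.822), Slc7a7 (5.41 ± 0.761), Slc38a1 (4.72 ± 1.18) and Slc6a14 (2.52 ± 1.19 RPKM). Slc7a2 and Slc1a5 overlapped there, as did each neighbouring pair from Slc7a5 down to Slc6a14. In EC-KO, Slc6a14 took the third place at 46.3 ± 12.4 RPKM and overlapped with Slc1a5 at 40.5 ± 2.15. After them came Slc7a5 (28.9 ± 6.11), Slc7a1 (17.4 ± 1.91), Slc38a1 (14.2 ± 4.8), Slc7a2 (9.46 ± 2.68), Slc7a8 (4.73 ± 0.649) and Slc7a7 (3.39 ± 0.554 RPKM), with overlap between Slc7a1 and Slc38a1 and between Slc38a1 and Slc7a2. The share of Slc6a14 in the summed RPKM of the 10 genes was 1.02%, 0.454% and 0.627% in FL 1, 2 and 3, against 7.51%, 10.0% and 12.3% in EC-KO 1, 2 and 3. That of Slc3a2 went from 58.6% to 39.1% on average. The sum over the 10 genes was 343 to 379 RPKM in FL and 455 to 478 RPKM in EC-KO, without overlap. With the length of the longest coding transcript, 5 of the 10 genes kept their rank in FL and 5 in EC-KO, where Slc6a14 came behind Slc1a5. Slc3a2 and Slc38a2 stayed ahead in both groups.

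**Figure D3:**
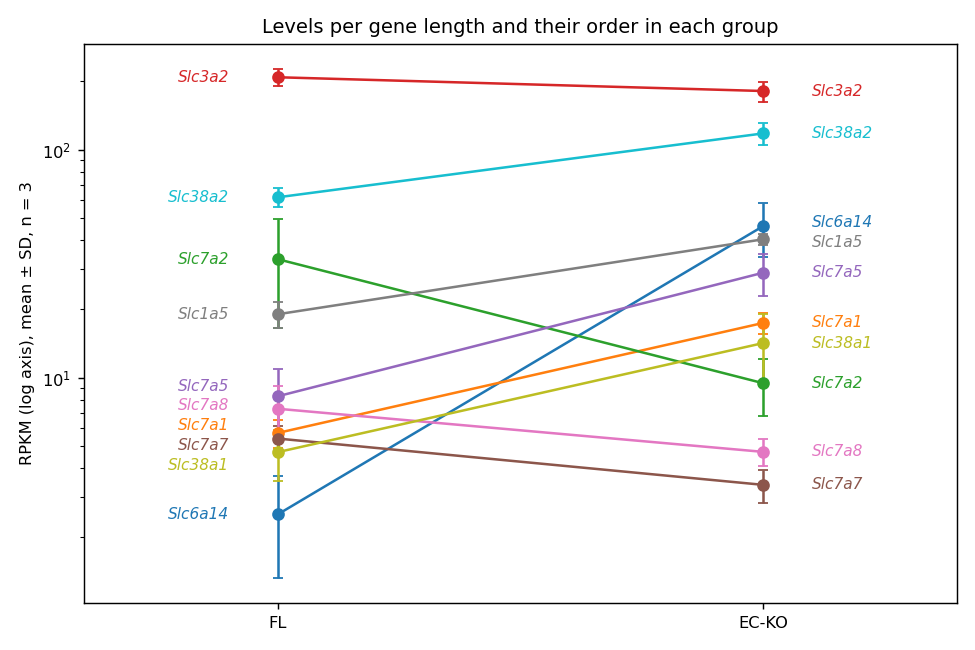
Mean level of the 10 genes per gene length (RPKM, log axis) in FL and EC-KO, with lines joining the means of a gene and bars for the SD of 3 libraries. Slc6a14 went from the lowest of the set (2.52 RPKM) to the third place (46.3 RPKM), while Slc7a2 went from 33.1 to 9.46 RPKM.

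Amino acid transporters outside the set moved in both directions. Of 42 such genes listed by family, 38 had counts and 33 were tested, and of these 9 rose and 5 fell, 42.4% against 27.1% of all tested genes, with a median log2 fold change of 0.19. Earlier results of these data were known when the list was made, so this share is a description. Slc38a5, the gene of SNAT5, which carries glutamine with sodium in exchange for protons, rose from 3.83, 5.62 and 3.93 CPM in FL to 18.0, 39.4 and 11.4 CPM in EC-KO (2.36 ± 0.43, adjusted p = 0.00527 in edgeR). Slc7a3, the gene of CAT3 and thus a relative of Slc7a1, rose from 0.365 ± 0.106 to 1.58 ± 0.318 CPM (2.10 ± 0.41, adjusted p = 0.00694 in edgeR), a low level in both groups. Slc1a3, the glutamate carrier GLAST, rose from 4.08 ± 0.327 to 15.0 ± 8.47 CPM (1.88 ± 0.37, adjusted p = 0.0071 in edgeR). EC-KO 2 was the highest library for Slc38a5 and Slc1a3, and without it their log2 fold changes were 1.69 and 1.29. The others that rose were Slc1a1, Slc6a20a, Slc7a4, Slc7a6, Slc36a2 and Slc38a4. Slc6a20a has a near-identical neighbour, Slc6a20b, between which reads could be split, so its value is uncertain.

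Slc36a4, a carrier of proline and tryptophan, fell from 44.1, 57.1 and 56.5 CPM in FL to 22.5, 26.5 and 24.6 CPM in EC-KO (-1.10 ± 0.17, adjusted p = 0.00252 in edgeR). The taurine transporter gene Slc6a6 fell from 288 ± 23.0 to 164 ± 23.8 CPM (-0.81 ± 0.17, adjusted p = 0.00948 in edgeR). Slc38a7, a lysosomal glutamine carrier, fell from 16.2 ± 1.43 to 10.6 ± 0.297 CPM (-0.62 ± 0.17, adjusted p = 0.0261 in edgeR), a call lost when FL 2, FL 3 or EC-KO 1 was dropped, and also for EC-KO 3 (adjusted p = 0.0635 to 0.107). Slc16a10 and Slc38a11 were the other 2 that fell. These falls in CPM were not falls relative to the pan-endothelial markers for Slc36a4, Slc6a6 and Slc38a7, which were then at 0.06, 0.35 and 0.56. Slc7a11, the cystine carrier that pairs with Slc3a2, was at 388, 517 and 384 CPM in FL, against 385, 489 and 581 CPM in EC-KO, with overlap (0.17 ± 0.21, adjusted p = 0.568 in edgeR). Scaled to pan-endothelial markers, Slc7a11 was called higher (1.33, adjusted p = 0.00969 in edgeR). With libraries left out in turn, 5 (without FL 3) to 9 transporters were called higher and 2 (without FL 2, EC-KO 1 or EC-KO 3) to 5 lower, and without FL 3 it was 3 lower.

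**Figure D4:**
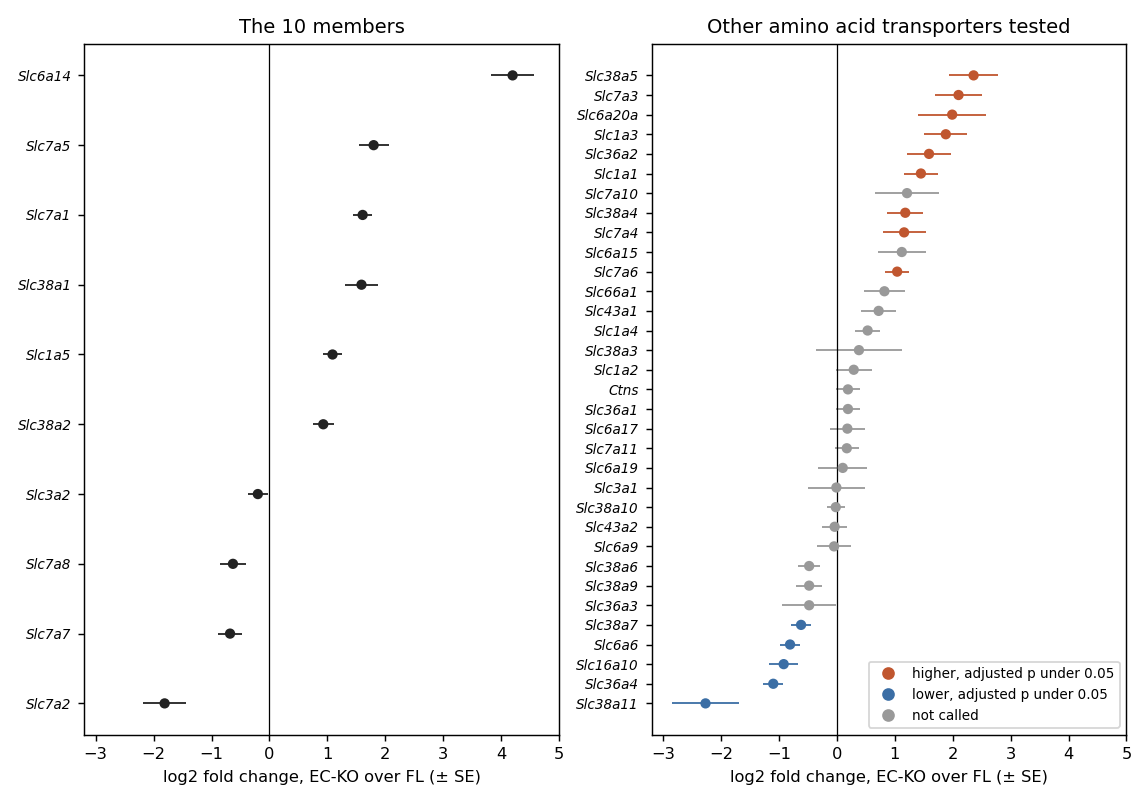
Log2 fold change of EC-KO over FL with its SE for the 10 transporter genes (left, black, no test) and for 33 other amino acid transporters (right), coloured by the call of the edgeR fit. Slc6a14 stands at 4.20 and Slc7a2 at -1.81, and 9 of the other transporters were called higher and 5 lower.

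Genes that use or make arginine, the main cargo of the CAT proteins, were called lower more often than higher: 5 of 12 tested fell and 2 rose, 58.3% called against 27.1% of all tested genes, with a median log2 fold change of -0.42. Scaled to pan-endothelial markers, this balance turned to 6 higher and 1 lower. The list was chosen with earlier results of these data known, so its share called is a description. Gatm, which makes the creatine precursor from arginine, fell from 13.3, 14.3 and 9.68 CPM in FL to 0.635, 0.690 and 1.61 CPM in EC-KO (-3.67 ± 0.38, adjusted p = 0.000582 in edgeR). The arginase genes Arg1 and Arg2, whose products split arginine into ornithine and urea, fell by 2.09 ± 0.37 and 1.45 ± 0.28 on the log2 scale (adjusted p = 0.00468 and 0.00633 in edgeR). Scaled to pan-endothelial markers they were at -0.94 and -0.24 and no longer called (adjusted p = 0.118 and 0.578 in edgeR). Arg1 was at 27.6, 15.5 and 9.93 CPM in FL and at 3.17 to 4.85 CPM in EC-KO. The other falls were those of Ass1 and Ddah1. Ass1, which rebuilds arginine from citrulline, was at 75.3 ± 6.24 and 47.4 ± 11.1 CPM (-0.67 ± 0.19, adjusted p = 0.0319 in edgeR), a call lost when FL 1, FL 2, FL 3 or EC-KO 3 was left out (adjusted p = 0.066 to 0.09). Odc1 and Oat, which make putrescine from ornithine and pass ornithine on to proline and glutamate, rose by 1.18 ± 0.20 and 0.92 ± 0.15 (adjusted p = 0.00429 and 0.00356 in edgeR). Nos3, the endothelial nitric oxide synthase, was at 29.1, 32.8 and 33.5 CPM in FL and at 24.6, 53.5 and 31.4 CPM in EC-KO, with the highest value in EC-KO 2. Its groups overlapped (0.20 ± 0.27, adjusted p = 0.613 in edgeR), and its log2 fold change was -0.21 without EC-KO 2. Scaled to pan-endothelial markers, Nos3 was called higher (1.23, adjusted p = 0.00758 in edgeR). Without FL 2, FL 3 or EC-KO 3 only 3 of the list were called lower.

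Genes of the amino acid response were mostly higher in EC-KO. The list holds genes that ATF4 induces when charged tRNA is short or the endoplasmic reticulum is under stress. It also holds Atf4 itself and the kinase genes Eif2ak3 and Eif2ak4, which act upstream of it, and these were among the genes called higher. Of 22 listed and tested, 14 rose and 1 fell, 68.2% called against 27.1% of all tested genes, with a median log2 fold change of 0.78. The list was chosen with earlier results of these data known, so this share is a description. Chac1, which breaks down glutathione, rose from 3.68, 4.31 and 4.20 CPM to 12.2, 19.0 and 13.9 CPM (1.88 ± 0.23, adjusted p = 0.00102 in edgeR). Nupr1, a stress-induced nuclear protein gene, rose from 42.6 ± 13.7 to 175 ± 42.4 CPM (2.04 ± 0.26, adjusted p = 0.0013 in edgeR). Ddit3, the gene of the transcription factor CHOP, rose from 20.5, 27.8 and 26.4 CPM to 94.1, 58.7 and 77.4 CPM (1.62 ± 0.21, adjusted p = 0.00137 in edgeR). None of these 3 genes had overlapping groups. Atf4 itself was at 470 ± 30.8 and 818 ± 140 CPM (0.80 ± 0.18, adjusted p = 0.0135 in edgeR) and was not called without FL 2 or FL 3 (adjusted p = 0.0709 and 0.0615). Asns, the asparagine synthetase gene, was at 14.5 ± 2.21 and 27.8 ± 10.6 CPM (0.94 ± 0.27, adjusted p = 0.0319 in edgeR), a call lost without FL 1, FL 2, FL 3 or EC-KO 1 (adjusted p = 0.057 to 0.118). Vldlr, a lipoprotein receptor gene, was the 1 called lower (-1.65 ± 0.23, adjusted p = 0.0018 in edgeR). Scaled to pan-endothelial markers it was at -0.51 and not called (adjusted p = 0.192 in edgeR). Ppp1r15a, also listed, went from 1300 ± 41.9 to 921 ± 99.7 CPM without overlap and was not called (-0.50 ± 0.17, adjusted p = 0.0558 in edgeR). The list's higher calls numbered 8 without FL 2 or FL 3 and 9 without EC-KO 1. Its lower calls numbered 2 with DESeq2, limma-voom or the non-robust fit, and 2 without EC-KO 2. Epithelial marker sums were higher in the same libraries, and their part in these levels was not tested.

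**Figure D5:**
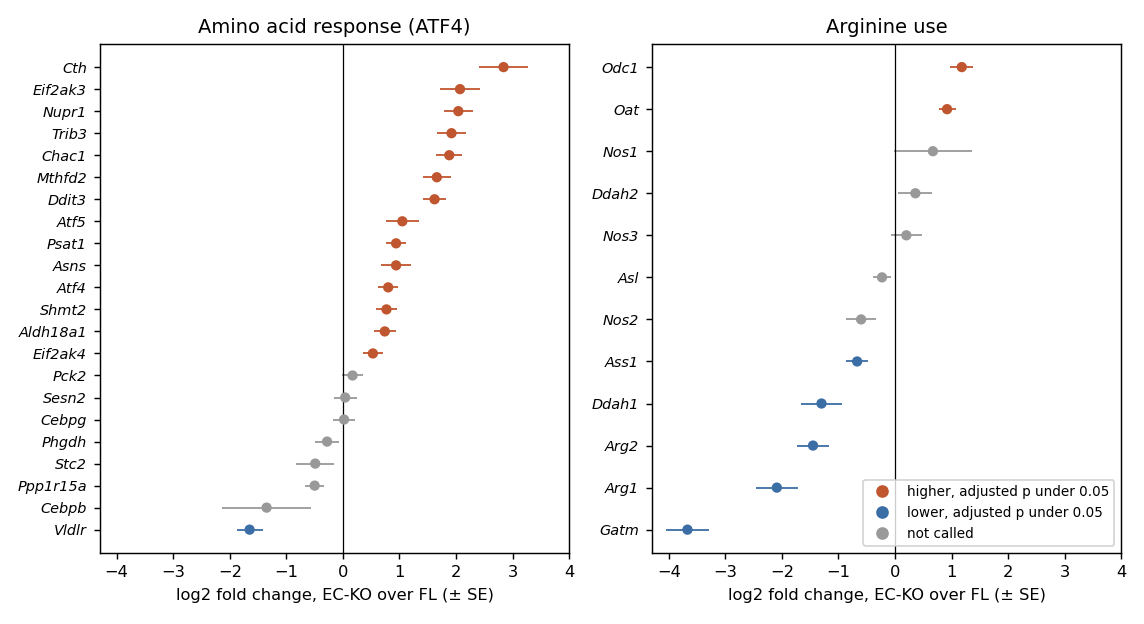
Log2 fold change of EC-KO over FL with its SE for genes of the ATF4 amino acid response (left) and of arginine use (right), coloured by the edgeR call. In the former 14 of 22 rose and 1 fell, and in the latter 2 of 12 rose and 5 fell, with Gatm at -3.67.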

How the data were processed

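Polyadenylated RNA of 6 isolates was sequenced. Reads were aligned with STAR 2.7.10b to mm10 and counted per gene with featureCounts 2.0.3, per the submitters' processing notes. The deposited count table holds whole-number counts for 56941 Ensembl genes, of which 51948 matched a symbol, with gene lengths. None of the 10 gene starts in it equals the GRCm38 (mm10) RefSeq start. Slc6a14 starts at 21581135 in the table, while the GRCm38 bases before its start end at 21714899. The coordinates thus differ from the noted mm10 build and are given as they stand. Its 2 other per-sample columns matched no label and were not used. Counts were fitted with edgeR 4.0.16 (R 4.3.3): filterByExpr, TMM factors, robust quasi-likelihood F test, Benjamini-Hochberg over the genes tested, no covariates. SE was taken as the size of the log2 fold change over the root of F. RPKM divides TMM-scaled CPM by the deposited gene length. The steps were tested on simulated data.

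Alternatives were RLE, upper-quartile and library-total factors, scaling to pan-endothelial markers, other filters, DESeq2 1.42.0, limma-voom 3.58.1, a non-robust fit, a replicate block and leaving out each library. The 10 genes and all gene lists were chosen with earlier results of these data known, so the shares called in them are a description. Genes named from a pathway list are up to 3 called per direction with the smallest p and an average log2 CPM of at least 0. Marker lists give their 2 most abundant genes, and Nos3, Arg2, Ass1, Atf4, Asns and Slc7a11 are named whatever their result. Other genes were named after their values were seen.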

Additional observations from a re-analysis of the deposited data

How the results depend on the processing

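Over all genes 2515 were called higher and 2514 lower, and with a library left out 1169 to 3009 and 1314 to 3731. Scaling to pan-endothelial markers gave 10727 higher and 238 lower, 97.8% of calls higher in place of 50%, and the share was 57.4% with upper-quartile and 57.5% with library-total factors. Under the pan-endothelial scaling 7 of the 10 transporter genes, Slc3a2 included, were called higher and 0 lower by edgeR, and of the other transporters 22 were called higher and 0 lower. Log2 fold changes then reversed for Fundc1 (0.16), Slc7a7 (0.46), Slc7a8 (0.46), Slc3a2 (0.95), Slc36a4 (0.06), Slc6a6 (0.35), Slc38a7 (0.56), Glud1 (0.69), Castor1 (0.01), Castor2 (0.49), Ass1 (0.56), Lyz2 (0.43), Acta2 (0.14), Myh11 (0.17) and Ms4a1 (0.97). With a library left out, Ms4a1 ranged from -0.7 (without EC-KO 1) to 0.04 and Nos3 from -0.21 to 0.41 (without EC-KO 1), both turning sign without EC-KO 2. The cause of these changes was not tested. With a library left out, 6 of the 10 genes stayed higher and 1 to 3 were lower, and 5 to 9 and 2 to 5 of the other transporters were called. With transcript lengths 5 ranks were kept in FL and 5 in EC-KO. Same-numbered libraries deviated together with correlations of 0.08, -0.01 and -0.26 and did not each correlate best with their own number. With 3 libraries per group such values cannot show whether the numbers pair them, and the labels do not say. With the replicate block 1 of the 10 genes was lower and 6 were higher, and 6 and 4 other transporters were called. DESeq2 and limma-voom called the same 6 genes higher.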

Other observations

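Genes through which amino acids are sensed by the kinase complex mTORC1 were mixed. Of 22 tested, 4 rose and 2 fell, 27.3% called against 27.1% of all tested genes, with a median log2 fold change of -0.04. Rragd, a Rag GTPase gene, rose from 7.39, 4.03 and 4.35 CPM in FL to 19.2, 14.2 and 21.3 CPM in EC-KO (1.80 ± 0.28, adjusted p = 0.00276 in edgeR). Fnip1 and Flcn, whose products form the complex that acts on Rag GTPases, rose by 0.93 ± 0.19 and 1.06 ± 0.25 (adjusted p = 0.00833 and 0.014 in edgeR). EC-KO 2 was the lowest EC-KO library for these 3 genes. Flcn lost its call when FL 1, FL 3 or EC-KO 1 was dropped (adjusted p = 0.0501, 0.0655 and 0.0575). Castor1, an arginine sensor gene, fell from 12.6, 21.3 and 23.5 CPM to 8.29, 8.03 and 8.63 CPM (-1.20 ± 0.24, adjusted p = 0.00834 in edgeR), and its relative Castor2 was at -0.65 ± 0.20 (adjusted p = 0.0424 in edgeR), a call lost when FL 2, FL 3, EC-KO 1 or EC-KO 3 was left out (adjusted p = 0.109 to 0.147). Relative to the pan-endothelial markers the values of Castor1 and Castor2 were 0.01 and 0.49. The list's higher calls numbered 2 without FL 3 or EC-KO 1, and its lower calls 5 without EC-KO 2 and 1 when any other library except FL 1 was left out.

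Of 7 genes that convert glutamate and glutamine, the latter a cargo of Slc1a5, Slc38a1 and Slc38a2, only Glud1 passed the test, 14.3% against 27.1% of all tested genes. This glutamate dehydrogenase gene was at 248 ± 9.13 CPM in FL and 180 ± 13.7 CPM in EC-KO (-0.46 ± 0.15, adjusted p = 0.0479 in edgeR). Its call was lost when any library other than EC-KO 2 was left out (adjusted p = 0.0683 to 0.147), and with upper-quartile factors, library totals or no filter (adjusted p = 0.078 to 0.0859).

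Of 8 smooth muscle and pericyte markers 7 fell (4 without EC-KO 1), with a median of -1.10, and Acta2 and Myh11 were at -0.98 ± 0.22 and -1 ± 0.22 (adjusted p = 0.0115 and 0.011 in edgeR). Acta2 was not called without EC-KO 1 (adjusted p = 0.0517). Of 6 lymphocyte markers Nkg7 rose and Cd3g fell, at 1.03 and -0.80 (adjusted p = 0.0146 and 0.0388 in edgeR). No lymphocyte marker was called higher by edgeR without FL 2, FL 3 or EC-KO 1, and 2 were without EC-KO 2. None was called lower without FL 1, FL 2, FL 3 or EC-KO 3. Cd79a and Ms4a1 were at 0.37 ± 0.39 and -0.35 ± 0.44 (adjusted p = 0.512 and 0.587 in edgeR). The endothelial cadherin gene Cdh5 and Pecam1 were at -1.13 ± 0.29 and -1.14 ± 0.30 (adjusted p = 0.0227 and 0.0245 in edgeR). Both calls were lost when FL 2, FL 3, EC-KO 1 or EC-KO 3 was left out (adjusted p = 0.0664 to 0.0814 for Cdh5 and 0.066 to 0.0952 for Pecam1).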
